A study of Mus musculus with 6 samples.

Results

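Helper T cell lineage factors are transcription factors that set and hold the cytokine programme of a CD4 T cell. The 7 examined here were Tbx21 (T-bet) and Eomes of the Th1 and cytotoxic programme, Gata3 of Th2 cells, Rora, Maf and Ahr, which act in Th17 cells and in cells that make IL-10 or IL-22, and Foxp3 of regulatory T cells. Their rows were found by gene symbol in a table of 29868 RefSeq transcripts that summed to 22623 genes. The 7 genes had 10 transcripts in it, 2 of Eomes, 3 of Foxp3 and 1 of each other factor.

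Transcripts were measured in 6 bulk RNA-seq libraries, all from CD4 T cells of mice. Naive cells of wild type C57/BL6 mice, CD4+ CD44lo CD62L+ CD25neg from spleen and lymph node, were activated on antibodies to CD3 and CD28 with IL-4 and IFN-gamma neutralised, so that no helper lineage was favoured (Th0). After 36 hours they received a MigR1 retrovirus, either empty (the controls) or with the cDNA of Blimp-1, and GFP+ cells were sorted 2 days later. There were 3 independent biological replicates per vector, numbered 1 to 3 in both. Another label gives the activation as 3 days. Cells were not given cytokines of any lineage, which limits them as a model of Th1, Th2, Th17 or regulatory T cells, and mouse age and sex are not in the labels.

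Blimp-1, the product of Prdm1, is a zinc finger repressor that is induced late in T cell activation and is known to restrain cytokine genes and proliferation. In T cells it is linked to the same networks as the lineage factors: T-bet, GATA3 and RORα each bind DNA directly and favour one cytokine programme while opposing others. The comparison asks whether forced Blimp-1 altered their transcripts in cells without a committed lineage. Values are FPKM, reads scaled to transcript length and library size, so they show shares of the RNA pool, and in sorted bulk cells a smaller number of expressing cells and less RNA per cell cannot be told apart.

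Prdm1 was at 0.996, 2.03 and 1.38 FPKM in empty vector replicates 1, 2 and 3 and at 9.91, 12.8 and 9.45 with Blimp-1, viral and cellular transcripts together. The control libraries held an estimated 17.2 to 38.5 M reads, and the Blimp-1 libraries 34.1 to 46.1 M. Empty vector replicate 3 stood apart on the first principal component, at 33.7 against -22.7 to 12.6 for the other libraries. All 7 genes listed as CD4 T cell markers were detected, with summed levels of 1790 to 2140 FPKM. The list also holds genes of T cells in general, such as Cd3e, and Cd4 itself was at 217 to 335 FPKM. Summed markers were at 1.63 to 4.79 FPKM (empty vector) and 1.48 to 5.84 (Blimp-1) for 5 B cell genes, 0.0222 to 0.163 and 0.00444 to 0.386 for 5 NK cell genes, 0.691 to 1.57 and 1.32 to 1.69 for 5 myeloid genes, and 1.02 to 1.26 and 1.35 to 1.62 for 5 dendritic cell genes. The NK cell marker Ncr1 was listed at 0 in each library, and Cd8a was at 0.1 to 0.169 FPKM while Cd8b1 was at 7.01 to 10.9. Of 2 gamma-delta T cell genes matched, of 4 sought, the sum reached 0.358 FPKM at most.

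The factors differed widely in level. Gata3 was the most abundant of the 7 in 6 of 6 libraries, at 21.8 ± 4.92 FPKM in control libraries and 19.3 ± 2.36 with Blimp-1 (SD, n = 3 each). Rora followed at 5.03 ± 2.09 and 6.29 ± 2.38, then Tbx21 at 2.35 ± 0.367 and 2.49 ± 0.449 and Maf at 1.44 ± 0.816 and 1.93 ± 0.385. Foxp3, Ahr and Eomes stayed below 1 FPKM in each library. Some neighbours in this order were not separated: Rora was above Tbx21 in 5 of 6 libraries, Tbx21 above Maf in 5 of 6 and Maf above Foxp3 in 5 of 6. Foxp3 was above Ahr in 3 of 6 and Ahr above Eomes in 2 of 6.

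**Figure D1:**
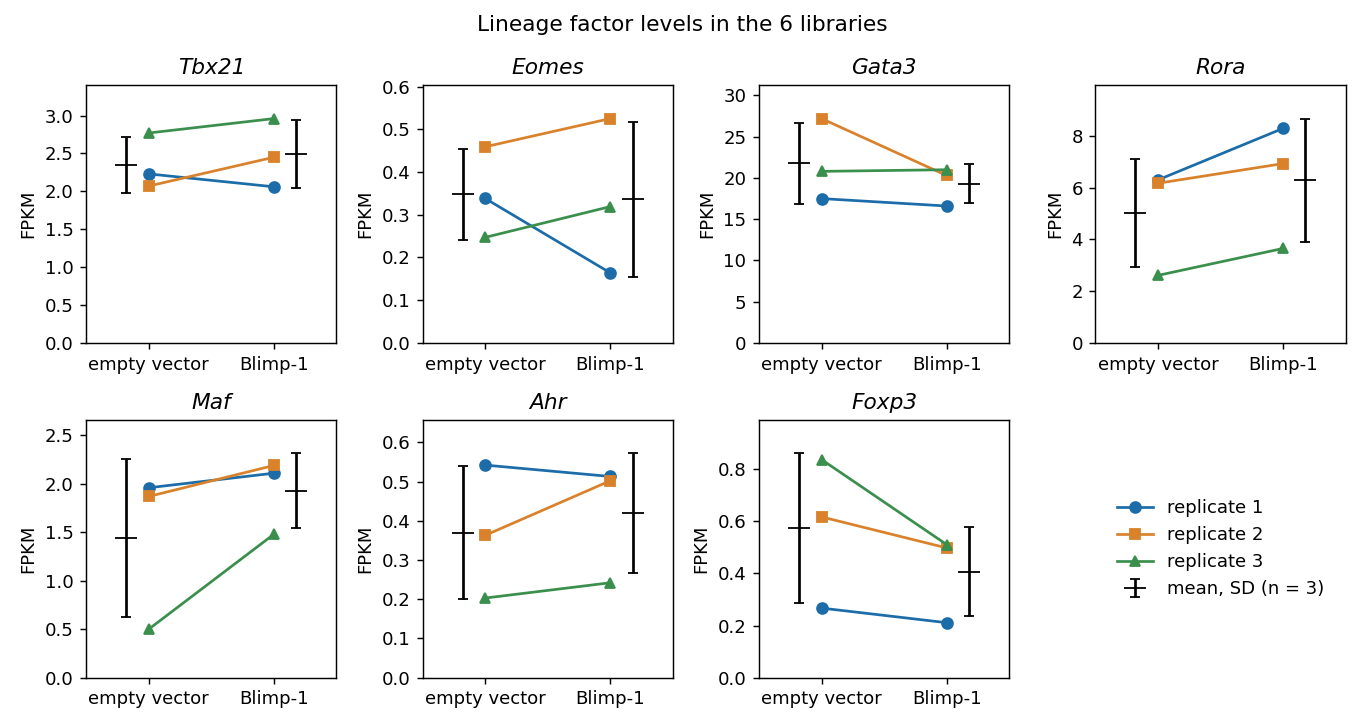
Level of each lineage factor in FPKM (vertical axis, from 0) in the empty vector and Blimp-1 libraries, with lines joining libraries of the same replicate number and bars for the mean and SD of 3 libraries. The values of the vectors overlap for each of the 7 factors, and for Rora, Maf and Ahr both replicate 3 libraries lie below the libraries of the same vector.

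No lineage factor passed the test between the vectors in the fit across all genes. The 4 factors at 1 FPKM or more in at least 3 libraries (Gata3, Rora, Tbx21 and Maf) were tested with limma on log2(FPKM + 1) among 10862 genes, of which 0 (0%) passed an adjusted p of 0.05 and 122 had an unadjusted p below 0.05. With the replicate number as a block 1 gene (0.00921%) was called as higher, Prdm1, and 1 (0.00921%) as lower, Igfbp4, which was named after its values were seen, and 2220 had an unadjusted p below 0.05. Neither is a lineage factor. The values of the vectors overlapped for all 7 factors. Over the tested genes they did not overlap for 2.28% that were higher and 2.34% that were lower with Blimp-1. Rora and Maf were higher with Blimp-1 in 3 of 3 replicate pairs, and none of the 4 was lower in 3 of 3, against 22.9% and 22.8% of all tested genes. With 4 factors, counts of 2 and 0 are not set apart from that background.

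Among the factors of the Th1 programme, Tbx21 encodes T-bet, the T-box factor that drives Ifng. It was at 2.23, 2.07 and 2.77 FPKM in empty vector replicates 1, 2 and 3 and at 2.06, 2.45 and 2.96 with Blimp-1, which rested on about 101 to 281 reads per library. Replicate 3 was highest with either vector, and the groups overlapped. The log2 fold change was 0.06 (SE 0.15, 95% interval -0.30 to 0.42, limma adjusted p = 0.998). Its sign turned without empty vector replicate 2 (-0.01) and without Blimp-1 replicate 3 (-0.04). With the replicate block the SE was 0.08, the 95% interval -0.15 to 0.26 and the limma adjusted p 0.729.

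Eomes, the other T-box factor of cytotoxic and memory T cells, was at 0.338, 0.459 and 0.247 FPKM in control libraries and at 0.164, 0.525 and 0.319 with Blimp-1. Replicate 2 was highest in both groups. The log2 difference was -0.02, and an exact permutation test over the 6 libraries (two-sided) gave p = 0.9, where 0.1 is the smallest p that 3 against 3 allows. Only about 12 to 86 reads per library lay behind these values. The split between its 2 transcripts was not stable: in empty vector replicate 3 the value fell on the transcript that carried 0.00182 FPKM or less in empty vector replicates 1 and 2 and in Blimp-1 replicates 2 and 3.

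The DNA before the start sites of these T-box genes is shown because the proteins are close relatives while their levels here differed. The sequences come from RefSeq promoters of build GRCm38.p6, written in the direction of transcription, for Tbx21 chr11:97115332-97115581 (minus strand) and for Eomes chr9:118477939-118478185 (plus strand), both outside annotated exons. Capitals mark matches to GAAAG, the core of the Blimp-1 binding motif, or to its reverse complement.
Tbx21: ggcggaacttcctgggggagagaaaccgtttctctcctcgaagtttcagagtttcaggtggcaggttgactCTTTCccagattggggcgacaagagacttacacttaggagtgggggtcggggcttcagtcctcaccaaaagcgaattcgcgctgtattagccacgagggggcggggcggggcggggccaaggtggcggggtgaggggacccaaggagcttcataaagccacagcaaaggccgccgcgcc
Eomes: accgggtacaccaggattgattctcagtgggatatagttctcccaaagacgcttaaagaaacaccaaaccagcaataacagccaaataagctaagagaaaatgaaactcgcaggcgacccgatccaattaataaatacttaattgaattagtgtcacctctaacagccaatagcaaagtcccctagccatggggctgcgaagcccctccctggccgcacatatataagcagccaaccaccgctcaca

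Tbx21 had 1 match, on the antisense strand, with its first letter 179 bases before the start, and Eomes had none. Among 32851 RefSeq promoter windows of 250 bases, 51.5% held GAAAG on either strand. Of the 5 factors with a window in that table (Tbx21, Eomes, Gata3, Rora and Foxp3), it was found in 2, Gata3 and Tbx21. This count took whole windows, also those that are not outside the genes. The Gata3 window overlaps 1 annotated exon, the 2 Foxp3 windows overlap 5 and 1, and the Rora window lies within its RefSeq gene. A longer form, AGNGAAAG, which contains the core, was in 7.3% of all windows and in 0 of these 5 factors. These matches describe letters in a window and do not show binding.

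Gata3, the master factor of Th2 cells, is also needed by all CD4 T cells for development and survival. It was at 17.5, 27.2 and 20.8 FPKM in control libraries and at 16.6, 20.3 and 21 with Blimp-1. Empty vector replicate 2 was the highest library and the remaining 5 lay between 16.6 and 21. The log2 fold change was -0.16 (SE 0.18, 95% interval -0.59 to 0.27, limma adjusted p = 0.998). Without empty vector replicate 2 it was 0.01. In replicate pairs the log2 differences were -0.07, -0.40 and 0.01, and the blocked fit gave an adjusted p of 0.403. Without pair 3 the limma adjusted p was 0.0698, from so few libraries that it leaned on the variance shared across genes.

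Rora encodes RORα, a nuclear receptor that acts in Th17 cells. It was at 6.3, 6.17 and 2.61 FPKM in empty vector replicates 1, 2 and 3 and at 8.29, 6.93 and 3.65 with Blimp-1. The Blimp-1 library was the higher one in 3 of 3 pairs, by 1.32, 1.12 and 1.4 times, yet both replicate 3 libraries lay below the other 4. The log2 fold change was 0.29 (SE 0.35, 95% interval -0.53 to 1.11, limma adjusted p = 0.998). With the replicate block the SE was 0.08, the interval 0.09 to 0.48 and the adjusted p 0.162 (unadjusted p = 0.0111), and the gene was not called. Without empty vector replicate 3 and without the block, the log2 fold change was -0.05. In the blocked fit without both replicate 3 libraries it was 0.25, with a limma adjusted p of 0.0632. That fit called 541 of 10862 genes as higher and 677 as lower. It left 1 residual degree of freedom per gene, so its p-values leaned on the variance shared across genes.

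Maf encodes c-Maf, a bZIP factor that activates Il4, Il10 and Il21. It was at 1.96, 1.87 and 0.501 FPKM in control libraries and at 2.11, 2.19 and 1.48 with Blimp-1. Empty vector replicate 3 was far below the other 5 libraries, on about 55 reads. The log2 differences within pairs were 0.07, 0.15 and 0.73, so the mean of 0.32 (SE 0.28, 95% interval -0.33 to 0.96, limma adjusted p = 0.998) was mostly that of pair 3. With a pseudocount of 0.1 in place of 1 it was 0.57 (limma adjusted p = 0.999). The difference was -0.0017 without empty vector replicate 3, and in the blocked fit without pair 3 it was 0.11. The blocked fit of all libraries gave an adjusted p of 0.288.

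Ahr encodes the aryl hydrocarbon receptor, a ligand-activated factor of Th17 and IL-22 producing cells. It was at 0.542, 0.363 and 0.203 FPKM in control libraries and at 0.513, 0.502 and 0.242 with Blimp-1, on about 19 to 128 reads. Replicate 3 was lowest in both groups. The log2 difference was 0.05 (exact permutation p = 0.7, two-sided).

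Foxp3, the factor that defines regulatory T cells, was at 0.267, 0.617 and 0.837 FPKM in control libraries and at 0.211, 0.498 and 0.511 with Blimp-1. The Blimp-1 library was the lower one in 3 of 3 pairs, at 0.79, 0.806 and 0.611 times the empty vector, and the groups overlapped. The log2 difference was -0.15 (exact permutation p = 0.4, two-sided), and about 18 to 88 reads per library supported it. Its 3 transcripts shared these reads unevenly: the transcript at 0.286 FPKM in Blimp-1 replicate 2 was listed at 0 in the other 5 libraries. CD25 positive cells were removed before activation. Without the filter on low values Foxp3, Eomes and Ahr had limma adjusted p-values of 0.998 each among 17327 genes.

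**Figure D2:**
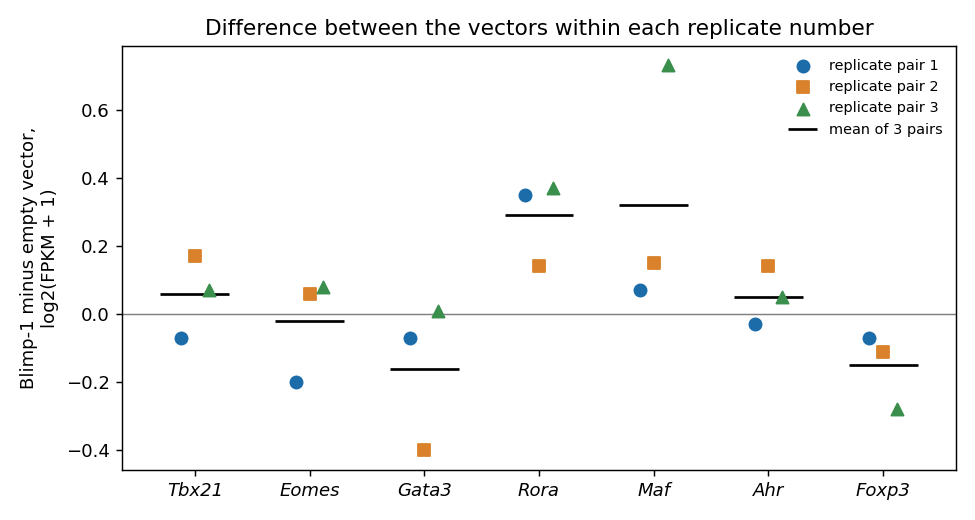
Difference in log2(FPKM + 1) between the Blimp-1 and the empty vector library of the same replicate number (vertical axis) for each factor, with a bar at the mean of 3 pairs. The 3 pairs of Rora and of Maf lie above 0, those of Foxp3 below 0, and pair 3 of Maf stands at 0.73.

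The replicate number accounted for more of the variation in these factors than the vector. Of the variation of log2(FPKM + 1) among the 6 libraries, 66.8% (Maf) to 90.7% (Ahr) lay between replicate numbers and 0.533% (Eomes) to 18% (Maf) between vectors. The medians over all tested genes were 75.5% and 9.54%, so the factors were not unlike other genes in this. The replicate number has more levels than the vector, so its share would be larger on average even without any effect. The shares were not corrected for this. The direction of the replicate pattern differed between factors. Averaged over both vectors, Rora was at 7.29, 6.55 and 3.13 FPKM and Ahr at 0.528, 0.432 and 0.223 in replicates 1, 2 and 3, while Tbx21 was at 2.14, 2.26 and 2.86 and Foxp3 at 0.239, 0.558 and 0.674. Rora, Maf and Ahr were therefore lowest in the replicate where Tbx21 and Foxp3 were highest. Over the 6 libraries, which share replicate numbers in pairs, Pearson's r with Rora was 0.92 for Maf, 0.92 for Ahr, -0.84 for Tbx21 and -0.77 for Foxp3. Gata3 (-0.28) and Eomes (0.17) followed Rora less closely.

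**Figure D3:**
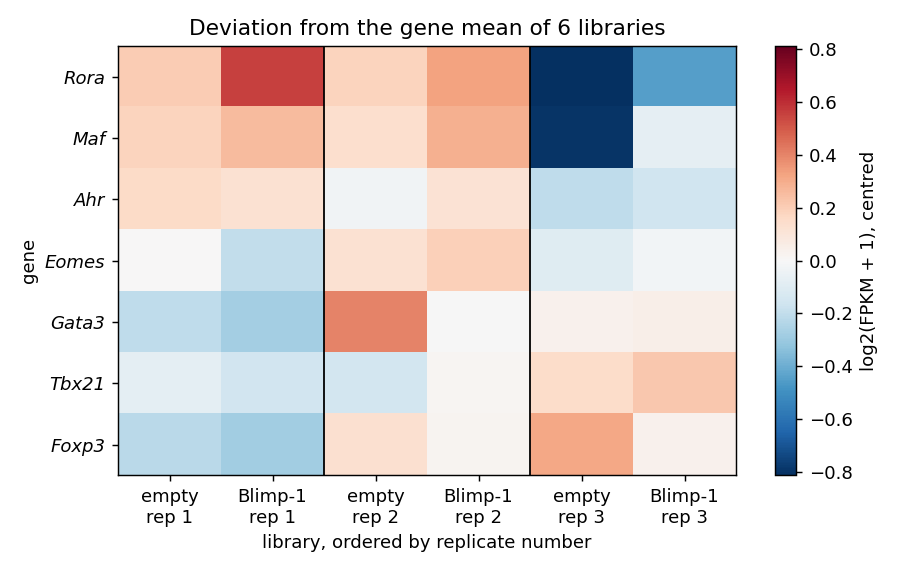
Deviation of log2(FPKM + 1) from the gene's mean over 6 libraries (colour), for the 7 factors (vertical axis), with the libraries ordered by replicate number (horizontal axis). Rora and Maf are lowest in empty vector replicate 3, and both are higher in the Blimp-1 library of every pair.

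The balance between opposing factors was compared within libraries, as ratios of FPKM. Gata3 exceeded Tbx21 by 7.87, 13.2 and 7.53 times with the empty vector and by 8.04, 8.29 and 7.1 times with Blimp-1. Only empty vector replicate 2 left the narrow span of the others. Rora relative to Tbx21 was at 2.83, 2.99 and 0.943 against 4.01, 2.83 and 1.23. Gata3 relative to Rora was at 2.78, 4.41 and 7.99 in control replicates 1, 2 and 3 and at 2, 2.93 and 5.75 with Blimp-1. It was lower with Blimp-1 in 3 of 3 pairs, by log2 differences of -0.47, -0.59 and -0.47, while the groups overlapped. Among 4 ratios given, with Rora relative to Maf as the fourth, exact permutation p-values (two-sided) that ignored the pairs were 0.4 to 0.6, and 0.6 each after Benjamini-Hochberg adjustment. Exact sign flips within pairs, a test added after the data were seen, gave p = 0.25 for Gata3 relative to Rora (0.667 adjusted over the 4 ratios), the smallest p that 3 pairs allow, and 0.5 to 0.75 for the others. Neither test can reach 0.05 with 3 libraries per vector.

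The genes that these factors act on or with were counted in 7 lists, and 0 of their tested members were called without or with the replicate block. Each tested gene named from a list had a limma adjusted p of 0.998 without the block. The Th17 list, which holds the receptors, cytokines and factors of that lineage, had 9 tested members of 16, with 5 higher in 3 of 3 pairs and 0 lower, where 22.9% and 22.8% of all tested genes were so. Ccr6, the chemokine receptor of Th17 cells, was at 0.625, 0.927 and 0.405 against 1.34, 1.78 and 1.62 FPKM without overlap (log2 fold change 0.65), as were 2.28% of all tested genes in that direction. Its Blimp-1 libraries alone brought Ccr6 past the filter, and its limma adjusted p was 0.142 with the block. Hif1a, a hypoxia factor that favours Th17 cells, was at 56.9 ± 17.8 and 78.7 ± 21.4 FPKM (SD, n = 3 each), and Stat3, which carries the IL-6 signal, at 65.7 ± 18 and 74.2 ± 18.3. The cytokine gene Il17a reached 0.53 FPKM at most and Il23r, a chain of the IL-23 receptor, 0.245.

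The Th1 list had 13 tested members of 18, with 5 higher and 3 lower in 3 of 3 pairs (22.9% and 22.8% of all tested genes). Without overlap 1 was higher and 2 were lower (2.28% and 2.34% of all tested genes). Ccl5, a chemokine of effector T cells, was at 14.4, 14.4 and 6.57 FPKM against 27.8, 35.5 and 20.3 with Blimp-1, without overlap (log2 fold change 1.21, limma adjusted p = 0.142 with the block). Tnf and Lta, the genes of TNF and lymphotoxin, were lower without overlap. Tnf was at 4.42, 4.91 and 31.5 FPKM against 2.59, 4.04 and 3.68, and Lta at 23.3, 20.2 and 104 against 19.9, 19 and 19.9. Both were far higher in empty vector replicate 3 than in any other library. Stat4, which carries the IL-12 signal, and Ifngr1, an IFN-gamma receptor chain, were the most abundant, with overlapping groups, at 72.8 ± 22.5 against 83.3 ± 9.38 and 99.5 ± 17.8 against 105 ± 13.6 FPKM (SD, n = 3 each). Il12rb2, a chain of the IL-12 receptor, was at 15.2 ± 3.66 and 18.5 ± 6.61. Ifng, the target of T-bet, reached 0.418 FPKM at most.

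Cytotoxic genes controlled by T-bet and Eomes had 8 tested members of 12, with 4 higher and 2 lower in 3 of 3 pairs (22.9% and 22.8% of all tested genes) and none without overlap. Gzmb, a granule protease, was at 161, 65.8 and 262 FPKM in control libraries and at 121, 111 and 109 with Blimp-1, and Il2rb, an IL-2 receptor chain, at 71.7 ± 16 and 64.4 ± 13.2 (SD, n = 3 each). Prf1, which encodes perforin, was at 0.489 ± 0.298 and 0.764 ± 0.467 FPKM. Gzma was at 7.58 FPKM in Blimp-1 replicate 2 and at 0.398 to 1.75 in the other libraries.

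The Th2 list had 8 tested members of 17, with 4 higher and 1 lower in 3 of 3 pairs (22.9% and 22.8% of all tested genes) and 1 higher without overlap (2.28%). Ccr8, a chemokine receptor of Th2 and regulatory T cells, was at 1.4, 2.07 and 1.92 FPKM against 2.94, 2.33 and 2.26, without overlap (log2 fold change 0.33, limma adjusted p = 0.251 with the block). Il4ra, the IL-4 receptor, was at 82.6 ± 11.5 and 72.9 ± 5.94 FPKM and Stat6, which carries its signal, at 52.4 ± 3.6 and 49.7 ± 6.98 (SD, n = 3 each). The cytokine genes were low: Il4 was at 0.134 to 1.21 FPKM in control libraries and 0.549 to 1.7 with Blimp-1, and Il5 reached 0.045 at most.

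Regulatory T cell genes had 16 tested members of 17, with 7 higher and 2 lower in 3 of 3 pairs (22.9% and 22.8% of all tested genes). Without overlap 2 were higher and 0 lower (2.28% and 2.34% of all tested genes). Ebi3, a subunit of IL-35 and IL-27, was at 16.9, 19.8 and 20.4 FPKM against 26.1, 24.7 and 34.9, and Izumo1r, the folate receptor 4 of regulatory T cells, at 68.1, 61.9 and 60 against 77.1, 69.4 and 85.8. Both were higher without overlap, with limma adjusted p-values of 0.142 and 0.186 with the block. The checkpoint gene Ctla4 was at 177 ± 20.4 and 203 ± 11.8 FPKM, Il2ra at 137 ± 51.2 and 108 ± 16.3, Tnfrsf18 at 217 ± 89.7 and 175 ± 40 and Capg at 209 ± 72.2 and 176 ± 40.1 (SD, n = 3 each). Most of these are also expressed by activated conventional T cells.

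Partners and targets of Maf and Ahr had 7 tested members of 12, with 4 higher and 1 lower in 3 of 3 pairs (22.9% and 22.8% of all tested genes) and none without overlap. Icos, a costimulatory receptor gene that c-Maf acts with, was at 32.3 ± 3.16 FPKM in control libraries and 35.6 ± 4.17 with Blimp-1 (SD, n = 3 each). Il10 stayed at 0.093 FPKM or less, and Cyp1a1, the classical target of the aryl hydrocarbon receptor, at 0.144 or less.

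DNA-binding partners and regulators had 15 members, of which 14 were matched in the table and 13 tested, with 6 higher and 1 lower in 3 of 3 pairs (22.9% and 22.8% of all tested genes). Tcf7, which encodes TCF-1, was at 488, 971 and 277 FPKM against 449, 763 and 459, and Lef1, its relative, at 101, 152 and 76.7 against 105, 142 and 91.4. Both followed the replicate number, with their highest values in replicate 2. Median log2 fold changes were 0.21 for Th1, 0.06 for cytotoxic, 0.06 for Th2, 0.18 for Th17, 0.09 for regulatory T cell, 0.13 for Maf and Ahr and 0.15 for partner genes, against -0.01 over all tested genes. In pair 3 the Th17 median was 0.43, against 0.15 and 0.24 in pairs 1 and 2. The Th1 median was 0.31 in pair 3, against 0.11 and 0.08, and the partner median 0.22, against 0.17 and 0.05. In the remaining lists pair 3 did not hold the highest median. Pair 3 holds empty vector replicate 3, which stood apart on the first principal component. The lists were chosen with earlier results of these data known and were not tested, so their counts and medians are descriptions.

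**Figure D4:**
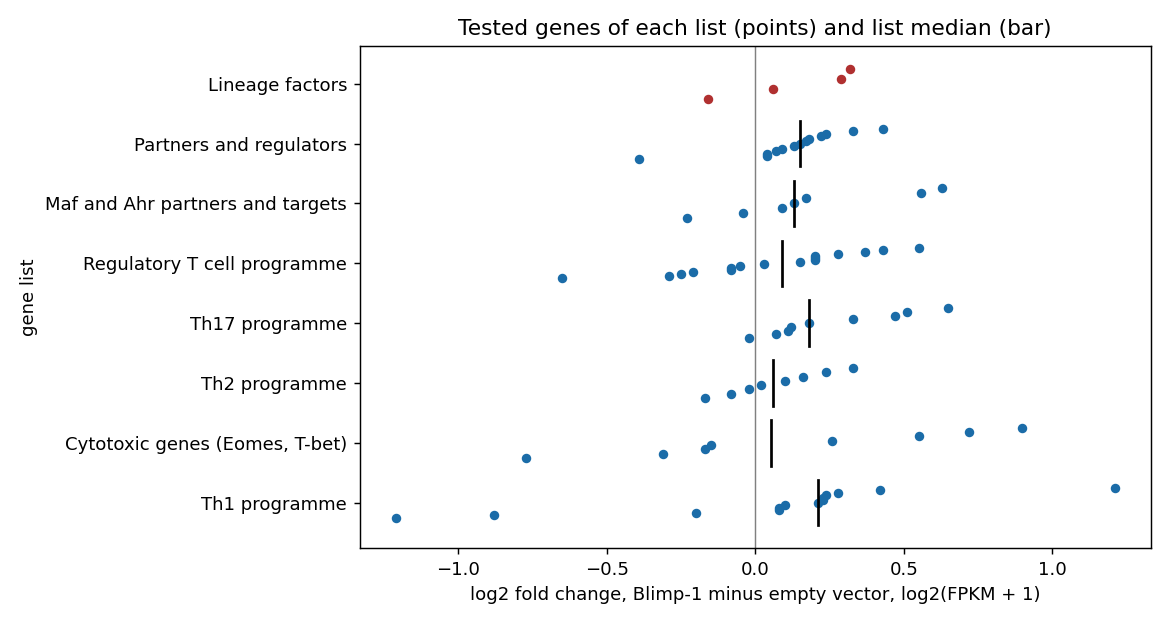
Log2 fold change of Blimp-1 against the empty vector on the log2(FPKM + 1) scale (horizontal axis) for the tested genes of each list (points) with the list median (bar), and for the 4 tested lineage factors (top row, no median). The lineage factors lie between -0.16 and 0.32, inside the span of the Th1, cytotoxic and regulatory T cell lists.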

How the data were processed

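The series holds 6 libraries, 3 per vector, from about 0.5 M sorted cells each. RNA (2 ug) was read for 50 cycles, single end, per the labels' protocols. The authors deposited FPKM per transcript. CASAVA 1.8.2, Cufflinks 2.2, Partek 6.6 and build mm9 are named, without roles, per the submitters' processing notes. Which aligner, annotation release, filters and strand setting were used is not given in the sources used here. An exact 0 may also stand for an estimate that failed.

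Transcript FPKM was summed per gene. A RefSeq table of GRCm38.p6, used for names, matched 29310 transcripts by accession and 430 by symbol, and 110 kept their deposited symbol. Depth was estimated from the value of 1 read in low genes with 1 transcript (68.9% to 72.4% of values up to 3 reads lay within 0.15 of a whole read), with transcript lengths from GENCODE M21. Reads behind a value are approximate and show counting error only.

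The test covered genes that reached 1 FPKM in 3 or more libraries. Values of log2(FPKM + 1) were fitted by limma 3.58.1 (R 4.3.3), its variance prior following the mean level, and p-values were adjusted by Benjamini-Hochberg (threshold 0.05). The pseudocount understates changes of low genes. The fit was run on simulated data with planted changes, independent noise and no replicate effect. That run does not show how small a change could be detected in these libraries. Alternatives were a pseudocount of 0.1, no filter, a filter of 5 FPKM, the replicate block, 2 scalings, no variance trend, the most abundant transcript, each library or pair left out and, added after the data were seen, sign flips of ratios within pairs. Same-numbered libraries deviated together (correlations of 0.80, 0.81 and 0.70), so the blocked fit, pair counts and sign flips took the numbers as pairs. The main fit and the exact permutation tests ignored the pairs, so their SEs, intervals and p-values include the spread between replicate numbers.

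In each list, members called by limma were to be named, with up to 4 without overlap, the 2 most abundant and up to 2 signature genes. The members and lists were chosen with earlier results of these data known. Some members of the lists are counted but not reported by name here.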

Additional observations from a re-analysis of the deposited data

How the results depend on the processing

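No lineage factor was called under any alternative in which it was tested. Leaving out 1 library gave log2 fold changes of -0.04 to 0.15 for Tbx21, -0.30 to 0.01 for Gata3, -0.05 to 0.58 for Rora and -0.0017 to 0.49 for Maf. Each such fit also left the other library of its pair without a partner. With the replicate block and pair 1, 2 or 3 left out, Rora was at 0.26, 0.36 and 0.25. Gata3 was at -0.20, -0.03 and -0.24 in these fits, and Maf at 0.44, 0.40 and 0.11. Tbx21 was at 0.12, -0.0009 and 0.05. The cause of these sign changes was not tested. The other alternatives kept the sign of each factor they tested; the filter of 5 FPKM left Tbx21 and Maf untested. With a pseudocount of 0.1, Maf was at 0.57.

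Over all genes, 0 were called as higher and 0 as lower under the other pseudocount, filters, scalings, variance model and transcript choice. Leaving out 1 library called 0 to 1 as higher. The replicate block called 1 and 1, and with pair 1, 2 or 3 left out 1 and 2, 3 and 6, and 541 and 677. Each fit with a pair left out had 1 residual degree of freedom per gene, so its calls leaned on the variance shared across genes. The block changed no call of a lineage factor. Depth limits Foxp3, Eomes and Ahr, whose approximate reads went down to 18, 12 and 19 per library.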

Other observations

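For each tested lineage factor the 3 genes with the most similar pattern over the 6 libraries were listed, by Pearson's r of log2(FPKM + 1) among the 10862 tested genes. The libraries share replicate numbers in pairs and the genes were picked for their r, so these are descriptions. Rora was matched by Tceal3 (0.998), Tspan13 (0.997) and A230073K19Rik (0.996). Tspan13, a tetraspanin gene, was at 111, 114 and 77.7 FPKM in empty vector replicates 1, 2 and 3 and at 130, 116 and 89.6 with Blimp-1, and so shared the low replicate 3 values of Rora and its higher Blimp-1 value in each pair. Maf was matched by Prss30 (0.999), Pptc7 (0.998) and Dglucy (0.997), of which Prss30 was at 1.34, 1.29 and 0.509 against 1.41, 1.5 and 1.08 FPKM. Gata3 was matched by Ankmy2 (0.999), Mpg (0.997) and Prr7 (0.992). Tbx21 was matched by Pak6 (0.992), Myadm (0.987) and Reck (0.978). Myadm was at 6.42 and 7.91 FPKM in the replicate 3 libraries and at 2.32 to 3.79 in the others.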
